A study of Mus musculus with 40 samples.

Results

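The genes described here are the 7 mouse globin genes Hbb-y, Hbb-bh1, Hba-x, Hba-a1, Hba-a2, Hbb-bt and Hbb-bs, together with Alas2, 8 of the 55260 genes listed. They were chosen by symbol as the embryonic and adult hemoglobin genes and the red cell gene for heme synthesis, with earlier results of these data known. All 8 symbols were found in each of the 5 tables of transcript abundance. The study grew branching lung organoids from mouse embryonic lung tip epithelium and measured bulk RNA. Abundance is given in TPM, a share of all transcripts that is scaled for transcript length, so that levels can be set side by side between genes.

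The libraries that carry the globin signal were 4 lung tips, labelled as tip epithelium, taken at embryonic days E10.5, E11.5, E12.5 and, last, E13.5, with 1 library per stage. Their reference was 10 organoid libraries in the same table. Each is labelled with an embryonic stage and a number of days, taken here as the stage of the tips and the days in culture: E9.5 (13 days), E10.5 (11, 18 and 32 days), E11.5 (11 days), E13.5 (11, 19 and 30 days) and E14 (11 and 24 days). A further 26 organoid libraries stand in 4 other tables: LO at days 8, 11 and 18 and at day 11 with DCI; 2C, 2C+F10, 2C+MTG, 2C+VC and an unnumbered ALL; ALL with 2 replicates, and likewise ALL-FGF10, ALL-MTG, and ALL-VC; and 1 intact organoid with 8 cut pieces. The labels do not define these abbreviations. They give no strain, genotype or number of embryos per tip library. The 4 tips differ in stage and the 10 organoids in stage and days, so the spread behind each p-value includes those differences; whether any libraries share animals or cultures is not stated. The depth of sequencing is unknown, since none can be read from TPM.

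Hemoglobin is a tetramer of alpha-type and beta-type globin chains, each holding a heme group. In the mouse, the first red cells arise in the yolk sac as the primitive lineage and circulate with a nucleus. They make the embryonic chains encoded by Hbb-y and Hbb-bh1 (beta-type) and Hba-x (zeta, alpha-type) alongside adult alpha chains. Definitive red cells, released later from the fetal liver, make the adult chains encoded by Hba-a1, Hba-a2, Hbb-bs and Hbb-bt. The change between these sets is known as hemoglobin switching. Alas2 encodes the red cell form of 5-aminolevulinate synthase, which catalyses the first step of heme synthesis. Lung epithelium is not a site of red cell formation, but red cells fill the vessels of the embryonic lung.

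The globin genes lie in 2 clusters (GRCm38, GENCODE M21). The beta-type genes are on the minus strand of chromosome 7, in the order of transcription Hbb-y (103851749 to 103853216), Hbb-bh1 (103841637 to 103843164), Hbb-bs (103826534 to 103828096) and Hbb-bt (103812524 to 103813996). The alpha-type genes are on the plus strand of chromosome 11, in the order Hba-x (32276400 to 32278116), Hba-a1 (32283511 to 32284465) and Hba-a2 (32296489 to 32297298). In each cluster the embryonic genes thus come first. Alas2 is on chromosome X (150547375 to 150570638).

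The promoter sequences of 1 embryonic and 1 adult gene of each cluster are shown because the embryonic to adult ratio of each cluster is the main value below. Each is the 150 bases before the RefSeq start of the gene (GRCm38.p6), 5′ to 3′ on the gene's strand. Capitals mark matches, on either strand, to the letters CACCC (the core of a KLF factor box), to CCAAT (bound by the factor NF-Y), to GATAA (the core of a GATA factor site) and to ATAAA or the longer ATATAA (both like a TATA box). The last pair can overlap, as in Hba-x.
Hbb-y, chr7:103853208-103853357, minus strand: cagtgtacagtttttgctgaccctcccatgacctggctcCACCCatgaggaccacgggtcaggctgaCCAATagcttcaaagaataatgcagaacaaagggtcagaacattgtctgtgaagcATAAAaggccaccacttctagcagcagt
Hbb-bs, chr7:103827929-103828078, minus strand: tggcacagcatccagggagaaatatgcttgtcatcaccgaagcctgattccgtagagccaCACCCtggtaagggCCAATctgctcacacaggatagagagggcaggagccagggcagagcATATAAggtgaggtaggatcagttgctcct
Hba-x, chr11:32276450-32276599, plus strand: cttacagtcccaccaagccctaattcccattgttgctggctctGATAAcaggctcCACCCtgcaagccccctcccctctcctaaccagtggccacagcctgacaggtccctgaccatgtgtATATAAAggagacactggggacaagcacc
Hba-a1, chr11:32283522-32283671, plus strand: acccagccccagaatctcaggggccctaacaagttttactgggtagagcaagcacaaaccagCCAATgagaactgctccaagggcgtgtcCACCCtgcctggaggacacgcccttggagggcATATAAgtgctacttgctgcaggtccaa
A promoter entry was found for 7 of the 8 genes, all but Hbb-bh1. CACCC was found in 7 of these 7, against 37.4% of all 32851 promoter windows of that length. CCAAT was found in 5, those of Hbb-y, Hbb-bs, Hbb-bt, Hba-a1 and Hba-a2, against 24.5% of windows. ATATAA was found in 5, those of Hba-x, Hba-a1, Hba-a2, Hbb-bs and Hbb-bt, against 5.35%. In the Hbb-y promoter ATAAA (24.1% of windows) lay from 28 to 24 bases before the start, and ATATAA lay from 30 to 25 bases before the start of Hbb-bs. GATAA, found in 13.3% of windows, was present for Hba-x and Alas2. The 300-base promoter entries of Hba-a1 and Hba-a2 shared an identical run of 297 bases.

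Reads of some members are hard to assign to 1 gene. The longest GENCODE transcripts of Hba-a1 and Hba-a2 were identical at 537 of 538 aligned bases, and 86.9% of the 50-base stretches of Hba-a2 also occur in Hba-a1. Transcripts of Hbb-bs and Hbb-bt were 92.7% identical, and 57.5% of the 50-base stretches of Hbb-bs also occur in Hbb-bt. The split within each of these pairs is therefore uncertain, and the sum of each pair is the firmer value. Hbb-y and Hbb-bh1 were 73.6% identical, Hbb-y and Hbb-bs 71.3%, and Hba-x and Hba-a1 66.9%, and none of these 3 pairs shared a 50-base stretch.

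The embryonic beta-type gene Hbb-y was the most abundant member in every tip. From E10.5 to E13.5 it stood at 2434, 1912, 4637 and 856 TPM, in the order of stages used for all 4 tips. It was highest at E12.5 and lowest at E13.5, and the highest tip was 5.42 times the lowest. Hbb-bh1, the other embryonic beta-type gene, stood at 1362, 1040, 965 and 34.5 TPM in the same order. Its first 3 tips lay close together and the E13.5 tip far below them, at 0.0253 times the E10.5 level. Hba-x, the embryonic alpha-type gene, stood at 1490, 1256, 2083 and 159 TPM. It too was lowest at E13.5, at 0.107 times the E10.5 level.

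Among the adult genes, Hba-a1 stood at 1473, 1269, 2713 and 689.5 TPM from E10.5 to E13.5, the same order of tips as Hbb-y. Hba-a2 stood at 160, 46.3, 915 and 291 TPM. Adult alpha-type transcripts were thus abundant in all 4 tips, including the youngest. The adult beta-type genes were the least abundant globins in the early tips. Hbb-bs, the more abundant of them, stood at 49.9, 44.6, 264 and 198 TPM, and Hbb-bt at 14.7, 19.1, 75.7 and 42.7 TPM. For both genes the E12.5 and E13.5 tips were above the E10.5 and E11.5 tips, and E13.5 held 3.97 times the E10.5 level of Hbb-bs and 2.90 times that of Hbb-bt. Alas2 stood at 11.51, 12.49, 22.5 and 4.48 TPM, with the same highest and lowest tip as Hbb-y.

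**Figure D1:**
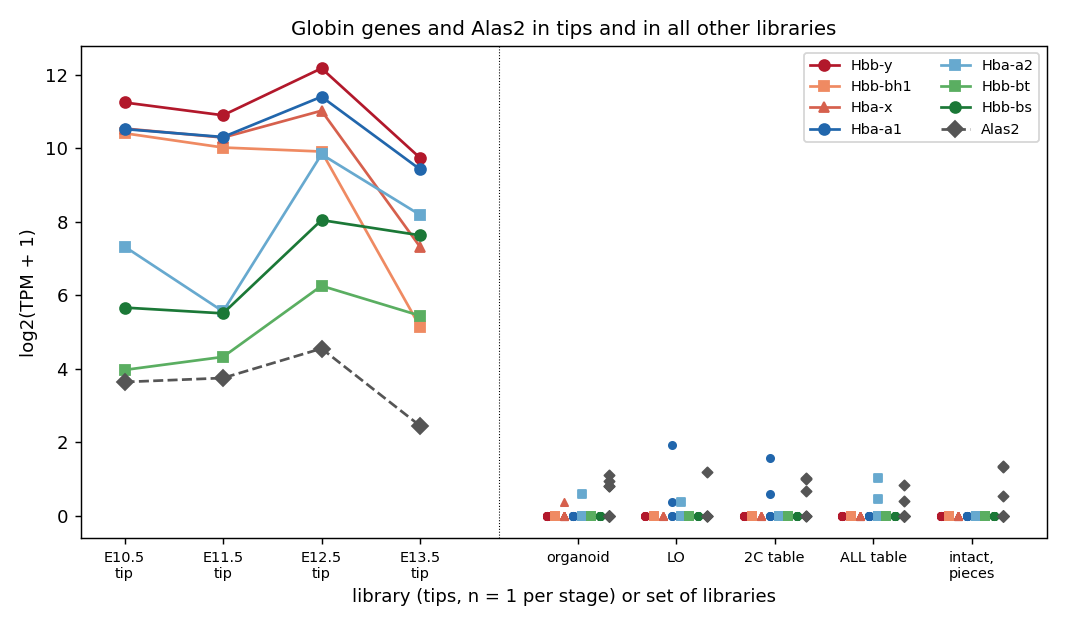
Level of each globin gene and of Alas2 as log2(TPM + 1) in the 4 tips (lines, 1 library per stage) and in the 36 organoid libraries, grouped by table (points, 1 per library). The tips hold all 7 globin genes, Hbb-bh1 and Hba-x drop below Hba-a2 and Hbb-bs at E13.5, and no organoid library exceeds 2.83 TPM for any globin gene.

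The embryonic to adult ratio within each chain type uses only transcripts from the same library, so it does not depend on how much globin RNA a tip carried. For the beta-type genes, (Hbb-y + Hbb-bh1) over (Hbb-bt + Hbb-bs) was 58.8 at E10.5, 46.3 at E11.5, 16.5 at E12.5 and 3.70 at E13.5. Each stage had a lower ratio than the one before it. The embryonic share of beta-type TPM was 98.3, 97.9, 94.3 and 78.7%, and the adult share 1.67, 2.11, 5.72 and 21.3%. For the alpha-type genes, Hba-x over (Hba-a1 + Hba-a2) was 0.912, 0.955, 0.574 and 0.162, with an embryonic share of 47.7, 48.8, 36.5 and 14.0%. The first 2 tips were close, and the later 2 had lower shares. With 1 library per stage there is no replicate check of these ratios and no test was made.

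**Figure D2:**
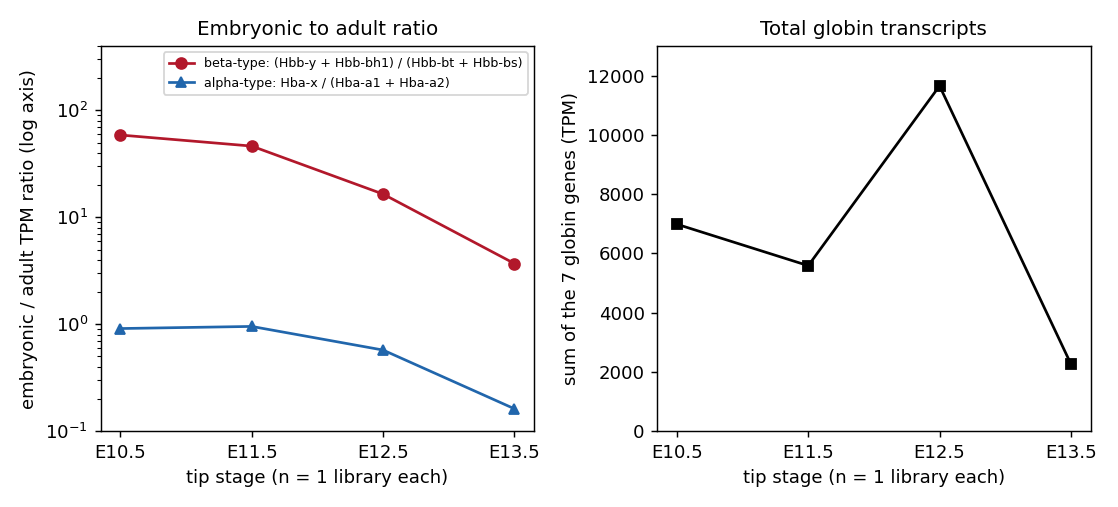
Left, ratio of embryonic to adult TPM on a log axis for beta-type and alpha-type globin genes in the 4 tips. Right, sum of the 7 globin genes in TPM in the same tips; each point is 1 library. The beta-type ratio goes down at each stage, to 3.70 at E13.5, while the total is highest at E12.5.

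The embryonic beta-type genes also shifted relative to each other. Hbb-bh1 was 56.0% of the Hbb-y level at E10.5, 54.4% at E11.5, 20.8% at E12.5 and 4.03% at E13.5. Hbb-y alone made up 34.9, 34.2, 39.8 and 37.7% of all globin TPM over the 4 stages, a narrow range. Over the same stages Hbb-bh1 made up 19.5, 18.6, 8.28 and 1.52%, Hba-x 21.3, 22.5, 17.9 and 7.01%, and Hbb-bs 0.714, 0.799, 2.27 and 8.72%. The embryonic genes with lower shares of all globin TPM at the later stages were thus Hbb-bh1 and Hba-x, and not Hbb-y. Against the adult genes alone Hbb-y did go down. Per 100 TPM of adult alpha-type globin it was at 149, 145, 128 and 87.3 TPM.

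**Figure D3:**
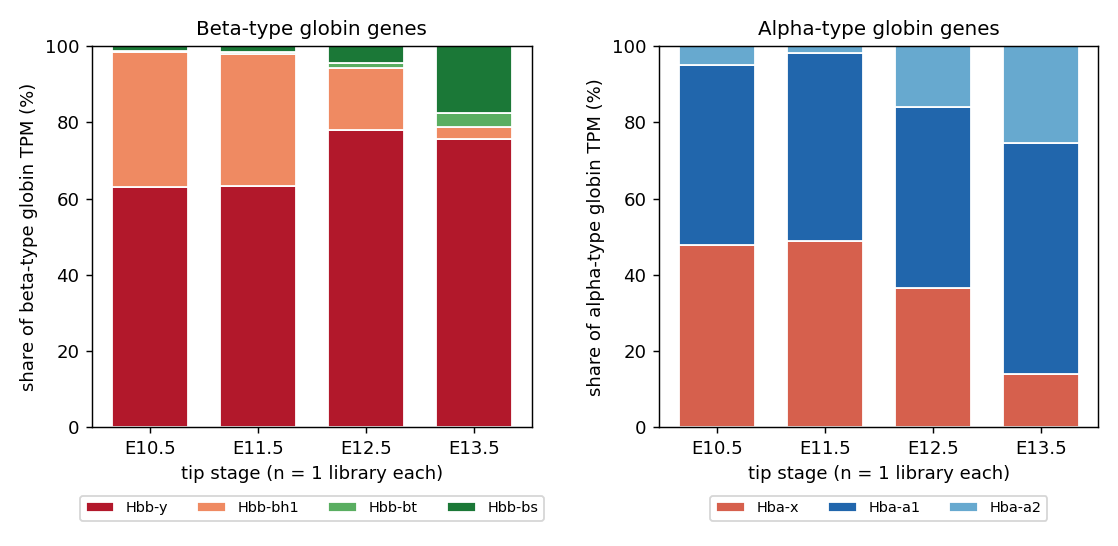
Share of beta-type (left) and alpha-type (right) globin TPM from each gene in the 4 tips, 1 library per bar. The Hbb-bh1 and Hba-x segments shrink and those of Hbb-bs and Hba-a2 widen towards E13.5, where embryonic genes hold 78.7% of beta-type and 14.0% of alpha-type TPM.

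Alpha-type and beta-type totals stayed near balance while their makeup changed. Alpha-type over beta-type TPM was 0.809, 0.852, 0.961 and 1.01 from E10.5 to E13.5. The adult pairs differed in how they divided. Hbb-bs was 77.2, 70.1, 77.7 and 82.3% of adult beta-type TPM, and Hba-a1 was 90.2, 96.5, 74.8 and 70.3% of adult alpha-type TPM. The near identity of Hba-a1 and Hba-a2 applies to this last value.

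The total of the 7 globin genes was 6984, 5587, 11652 and 2272 TPM, or 0.700, 0.560, 1.17 and 0.228% of the library. In bulk samples, fewer red cells and less globin RNA per red cell cannot be told apart. Alas2 had its highest and lowest tip where the total had them.

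By the median over the 8 genes, the change from E12.5 to E13.5 was the sharpest step between neighbouring stages. Hba-a2, Hbb-bs and Hbb-bt changed more from E11.5 to E12.5. As 1 library stands at each stage, the rule for counting a gene was a difference of 1 or more in log2(TPM + 1), with 5 TPM or more in the higher library. By this rule 6 of the 8 genes were lower in the E13.5 tip than in the E12.5 tip, where 2.57% of 10765 genes were; none was higher, where 2.26% were. The differences were -4.77 for Hbb-bh1, -3.70 for Hba-x, -2.44 for Hbb-y, -2.10 for Alas2, -1.97 for Hba-a1 and -1.65 for Hba-a2. Only 14 genes had a more negative difference than Hbb-bh1. Hbb-bt (-0.81) and Hbb-bs (-0.41) did not reach the threshold, so the adult beta-type genes were the members least reduced. The median was -2.04 over the 8 genes and 0.03 over all genes counted.

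The step before it ran the other way. In the E12.5 tip against the E11.5 tip, 5 of the 8 genes were higher by the same rule, where 1.8% of 11129 genes were; none was lower, where 5.41% were. These were Hba-a2 (4.27), Hbb-bs (2.54), Hbb-bt (1.93), Hbb-y (1.28) and Hba-a1 (1.10). Hbb-bh1 was the only member with a negative difference (-0.11), while Hba-x (0.73) and Alas2 (0.80) stayed under the threshold. Between the E11.5 and E10.5 tips, Hba-a2 (-1.76) was the only member counted, as lower, where 1.96% of genes were, with 3.59% higher. Its split from Hba-a1 is uncertain, in this step and in the one from E11.5 to E12.5. The sum of Hba-a1 and Hba-a2, the firmer value, stood at 1633, 1315, 3628 and 981 TPM from E10.5 to E13.5. In the E13.5 tip against the E10.5 tip, Hbb-bs (1.97) and Hbb-bt (1.48) were higher, where 3.28% of genes were. Hbb-bh1 (-5.26), Hba-x (-3.22), Hbb-y (-1.51), Alas2 (-1.19) and Hba-a1 (-1.09) were lower, where 5.36% were, and Hba-a2 (0.86) was not counted.

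A straight line on embryonic day was fitted to the 4 tips with limma, a linear model across all genes. Over the 3 days from E10.5 to E13.5 the fitted change in log2(TPM + 1) was -4.77 ± 1.39 (SE) for Hbb-bh1, with adjusted p = 0.34 by limma. It was -2.68 ± 1.20 for Hba-x (adjusted p = 0.51 by limma), 2.53 ± 0.73 for Hbb-bs (adjusted p = 0.33 by limma) and 1.91 ± 0.66 for Hbb-bt (adjusted p = 0.40 by limma). None of the 8 genes was called, and neither was any of the 14025 genes tested (0%), at Benjamini-Hochberg adjusted p under 0.05. At unadjusted p under 0.05, 3 members were found (Hbb-bh1, Hbb-bs and Hbb-bt), against 10.9% of all genes, 1529 in number. The changes of Hbb-y (-0.97), Hba-x, Hba-a1 (-0.66) and Alas2 (-0.83) turned positive without the E13.5 tip (1.39, 0.73, 1.32 and 1.37), so their direction rests on that library. Hbb-bh1 kept its sign, at -0.75 without that tip and -7.31 without the E10.5 tip. Hbb-bt was at 3.43 without the E13.5 tip, and Hbb-bs at 3.57. Hba-a2, at 2.06 ± 1.51 with all 4 tips (adjusted p = 0.69 by limma), lay between 1.28 without the E11.5 tip and 3.94 without the E10.5 tip.

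Organoids carried next to no globin transcripts. In the tips, each globin gene was at 14.7 TPM or more. In the 10 organoids of the same table, Hbb-y, Hbb-bh1, Hba-a1, Hbb-bs and Hbb-bt were listed at 0 in every library, so no fold is given for them. Hba-x was listed at 0.29 TPM in the organoid from E10.5 tips at 32 days, and Hba-a2 at 0.52 TPM in the one at 18 days. The other 9 organoids were at 0 for each of these genes. A value of 0 in TPM is not a count of 0 reads with a known limit. Of 8 genes that every cell uses, such as Actb and Tbp, none was at 0 in an organoid.

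Alas2 was the member that organoids listed most often. It was at 11.51, 12.49, 22.5 and 4.48 TPM in the tips, against 1.17, 0.94, 0.77 and 0.75 TPM in 4 organoids and 0 in the other 6. Every tip stood above every organoid, and the difference in log2(TPM + 1) was 3.23 ± 0.34 (SE, adjusted p = 7.1e-07 by limma). In the 4 organoids with Alas2 above 0, all 7 globin genes were at 0.

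The test of tips against organoids called all 8 genes as higher in tips, where 40.2% of the 16779 genes tested were higher, 61.9% were called in either direction and 65.7% had an unadjusted p under 0.05. All tips also stood above all organoids for each of the 8, as for 29.3% of genes tested. The members passed the filter on low values through the tips, where they are high, so these counts lend no support of their own. The largest adjusted p among the 7 globin genes was 2.3e-08 by limma, for Hbb-bh1. This test takes its spread from tips and organoids together, and Hbb-bh1 was at 0 in every organoid. The spread is then too small for the tips, so the p-value overstates the certainty. The same limit applies to the other globin genes, each at 0 in all or nearly all organoids. Of all genes, 65.0% of the calls were higher in tips, and 54.4% after quantile normalization. The median difference of all genes was 0.20, against 0.02 after that normalization, and each member was above 2.9 under every alternative.

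The other 4 tables gave the same picture. Across their 26 libraries Hbb-y, Hbb-bh1, Hba-x, Hbb-bs and Hbb-bt were listed at 0 throughout, and 175 of 182 values of the 7 globin genes were 0. The 7 values above 0 were all of Hba-a1 or Hba-a2. Hba-a1 was at 2.83 TPM in LO at day 11 with DCI, 0.3 TPM in LO at day 18, 1.99 TPM in 2C+F10 and 0.5 TPM in 2C+MTG. Hba-a2 was at 0.3 TPM in LO at day 18, 1.05 TPM in ALL replicate 2 and 0.39 TPM in ALL-FGF10 replicate 2. Replicates did not share these values: replicate 1 of both ALL and ALL-FGF10 listed Hba-a2 at 0. Every globin gene was at 0 in the intact organoid and the 8 pieces. Alas2 was above 0 in 9 of the 26 libraries, with a highest value of 1.56 TPM in 1 of the cut pieces.

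The tips also held other red cell genes. Slc4a1, the band 3 anion exchanger of the red cell membrane, was at 16.3, 15.6, 18.9 and 2.52 TPM from E10.5 to E13.5, against 0 in all 10 organoids (adjusted p = 2.0e-07 by limma). Hemgn, a nuclear protein of red cell precursors, was at 6.47, 7.26, 9.39 and 0.55 TPM, against 0 in all 10 organoids (adjusted p = 1.5e-05 by limma). With all organoids at 0, the spread behind these p-values is too small for the tips, as for the globin genes. Slc4a1 and Hemgn were both lowest at E13.5, like Hbb-bh1 and Hba-x. Per 100 TPM of adult alpha-type globin, Slc4a1 was 1.00, 1.19, 0.520 and 0.257 TPM and Hemgn 0.396, 0.552, 0.259 and 0.0561 TPM, lowest at E13.5 on this scale too. The transcription factors that follow, like Epb42 and Tal1 in the plot of red cell genes, were chosen after their values were seen. Gata1, which drives red cell genes, was at 1.88, 0.77, 1.6 and 0 TPM, and Gfi1b, a repressor in red cell precursors, at 1.3, 0.61, 2.2 and 0 TPM, with both at 0 in every organoid. Klf1, an activator of adult beta-globin, was at 1.45, 3.72, 1.85 and 0.22 TPM, against 0.61 TPM in the highest organoid, so that its E13.5 tip lay within the organoid range. With Tal1, these were the 4 of 12 listed red cell transcription factors with their lowest tip at E13.5. The other 8 were not lowest there, such as Nfe2 (2.79, 3.61, 3.09 and 3.14 TPM), Myb (3.13, 2.05, 2.03 and 2.74 TPM) and Lmo2 (6.3, 10.3, 1.23 and 1.32 TPM). The E13.5 tip was the lowest for 12 of 14 membrane and skeleton genes and 6 of 7 heme enzymes. It was also the lowest for 11 of 15 genes for iron, folding and metabolism. Among markers of other cells it was the lowest for 7 of 10 in mesenchyme, 2 of 9 in endothelium and 3 of 10 in macrophages and leukocytes. The counts were 1 of 7 in megakaryocytes and platelets and 1 of 10 in lung epithelium. How often this tip was the lowest among all genes was not counted, so these counts have no background. By the rule for single tips, 2.57% of all genes that reached 5 TPM were lower at E13.5 than at E12.5. Of the listed genes that reached it, 2 of 4 membrane genes and 2 of 10 iron, folding and metabolism genes were lower. None was lower among 5 transcription factors and 7 heme enzymes.

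**Figure D4:**
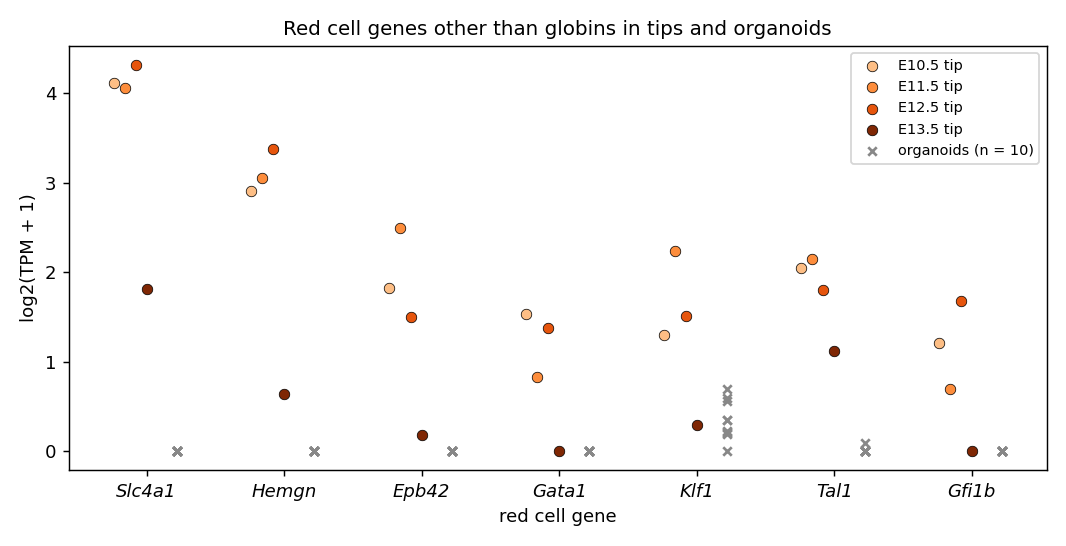
Red cell genes other than globins as log2(TPM + 1) in the 4 tips (circles, 1 library per stage, lighter to darker from E10.5 to E13.5) and in the 10 organoids (crosses, some overlying). The 7 genes shown were chosen after their values were seen, and the E13.5 tip is the lowest of the 4 for each of them, though not for 8 of the 12 listed transcription factors; Slc4a1, Hemgn, Epb42, Gata1 and Gfi1b are at 0 in all organoids.

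By list, the tips differed from the organoids as follows, with 40.2% of all genes called higher, 21.7% lower and a median of 0.20. Of 14 genes for the red cell membrane and skeleton, 12 were higher and 1 lower (median 1.41). Epb41, protein 4.1, which many cell types use, was at 150 ± 5.05 TPM in tips and 48.3 ± 6.66 TPM in organoids (SD, n = 4 and 10). Gypc, glycophorin C, was at 5.80 ± 2.06 TPM in tips and 0.650 ± 1.42 TPM in organoids. The lower one was Aqp1, a water channel that endothelium and other cells also make, at 0 to 0.45 TPM in tips and 0.52 to 95.9 TPM in organoids. Of 12 red cell transcription factors, 10 were higher and 1 lower (median 0.91). Bcl11a, known to repress embryonic and fetal globin genes and also used in neurons and lymphocytes, was at 15.3, 14.2, 28.1 and 23.5 TPM in the tips, against 0 to 1.65 TPM in organoids (difference 3.93, adjusted p = 2.8e-08 by limma). Sox6, its partner in silencing Hbb-y, was at 17.2 ± 7.12 TPM in tips and 4.95 ± 2.55 TPM in organoids (difference 1.64), and Zfpm1, the GATA1 cofactor FOG1, at 14.5 ± 2.83 and 8.00 ± 3.39 TPM in the same order. Zbtb7a, a repressor of fetal globin in human cells, was the lower one, at 7.04 ± 1.39 TPM in tips and 15.4 ± 2.68 TPM in organoids.

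Heme synthesis beyond its first step showed little of this contrast. Of the 7 enzymes that follow, 2 were higher in tips and 0 lower (median 0.06). Uros, uroporphyrinogen III synthase, was at 12.4 ± 2.37 TPM in tips and 9.42 ± 1.60 TPM in organoids (SD, n = 4 and 10), with a difference of 0.36 (adjusted p = 0.0415 by limma), a call lost without the E10.5, E11.5 or E12.5 tip and under 4 other alternatives (adjusted p up to 0.21 by limma). Of 16 genes for iron, globin folding and metabolism, 12 were tested, 7 higher and 2 lower (median 0.60). Tmcc2 was at 11.1 ± 1.40 TPM in tips and 1.13 ± 0.854 TPM in organoids, and Tspan33, a tetraspanin of red cell precursors, at 6.58 ± 2.04 and 1.20 ± 0.412 TPM in the same order. Car2, carbonic anhydrase 2, which epithelia also make, was lower, at 36.9 ± 8.22 TPM in tips and 169 ± 29.0 TPM in organoids. Car1 was at 0 in all tips and organoids, and Ahsp was not analysed here. Of 7 other globin family genes only 2 were tested, and Mb, myoglobin, was called at 0.78 to 1.18 TPM in tips, against 3.01 TPM in 1 organoid and 0 in the other 9. Hbb-bh2, Hbb-bh0 and Hbq1a were at 0 in all 14 libraries, and Hbq1b was at 0.95 and 4.03 TPM in the E10.5 and E12.5 tips and at 0 elsewhere. A gene that is near 0 in organoids enters these tests only through the tips, which limits the counts in the same way as for the globins.

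Markers of other cells were present in the tips as well. All 10 lung epithelium markers were present in the tips, with Epcam at 389 to 640 TPM and Nkx2-1 at 319 to 365 TPM. Against organoids, 4 of the 10 were higher in tips (Epcam, Sox9, Foxa2 and Etv5) and 4 lower (Cdh1, Krt8, Krt18 and Sftpc), with a median of -0.10. Of all genes tested, 40.2% were higher and 21.7% lower, the shares to set beside each count of this kind below. Sftpc, a surfactant protein gene of alveolar cells, was at 37.0 to 210 TPM in tips and 49076 to 124839 TPM in organoids (difference -9.81). The 10 mesenchyme markers summed to 145, 285, 135 and 108 TPM in the E10.5 to E13.5 tips. In organoids they summed to 2.67 to 328 TPM, with a median of 11.9 TPM, and 8 of 10 were higher in tips. The 9 endothelium markers summed to 24.1, 47.2, 12.7 and 17.4 TPM, against 11.8 to 39.0 TPM in organoids. Of the 8 tested, 7 were higher and 1 lower. That 1, Esam, was at 3.94 to 8.66 TPM in tips and 11.3 to 38.7 TPM in organoids. The 10 macrophage and leukocyte markers summed to 2.85, 11.7, 14.3 and 7.63 TPM, against 0.05 to 2.08 TPM in organoids, with 4 of the 5 tested higher. The 7 megakaryocyte and platelet markers summed to 1.62, 4.81, 13.1 and 2.88 TPM, against 4.65 to 938 TPM in organoids, where Pf4 alone reached 936 TPM in 1 organoid. Gp9 was at 0 in 3 of the 4 tips. Mesenchyme and endothelium sums were highest in the E11.5 tip, whose globin total was below those of the E10.5 and E12.5 tips. The part of these cells in the globin values was not tested.

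The genes whose profile over the 14 libraries was most like that of Hbb-y, by Pearson's r of log2(TPM + 1) among 12306 genes, were St6gal2 (0.999), Apba2 (0.997), Adamts19 (0.996), Ptgis and Mn1 (both 0.995). For Hbb-bs they were Tox2 (0.993), Sstr4 (0.991), Mn1 and Fam192a (both 0.989) and Tbx1 (0.987), and for Alas2 they were Nova1 (0.975), Uspl1 (0.969), Zbtb16 (0.968), Gm3739 and Gtf2h3 (both 0.966). Because the tips and the organoids form separate clusters, these values mostly record that a gene differed between them. St6gal2 stood at 5.44, 6.26, 6.46 and 4.07 TPM in the tips, with the same highest and lowest tip as Hbb-y but at a far lower level. Tbx1, a transcription factor gene, stood at 8.69, 8.72, 32.1 and 52.8 TPM, with its higher values at E12.5 and E13.5, as for Hbb-bs. Among all genes, only Hbb-y and Hba-a1 were at 100 TPM or more in every tip and listed at 0 in all 10 organoids.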

How the data were processed

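The authors deposited 5 tables of TPM per gene, for which RSEM, Bowtie2 and mm10 are named in the submitters' processing notes; versions and the gene annotation are not given in the sources used here. Per the labels, organoid RNA was taken with TRIzol and sequenced with a VAHTS mRNA kit. Titles gave the sample of 40 columns, and 1 column of the pieces table, named as an E10.5 primary sample, matched no title and was not used, also not as a repeat of the E10.5 tip. Columns of the tips and organoids table summed to 997840 to 998611 TPM. Coordinates and transcripts are from GENCODE M21, and promoters are from RefSeq.

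Tests used log2(TPM + 1) and kept genes at 1 TPM or more in 2 or more libraries, with limma 3.58.1 in R 4.3.3 (eBayes with a variance trend, two-sided, Benjamini-Hochberg over all genes). Tips and organoids were compared as 2 groups; the line on embryonic day used the 4 tips alone. The test was tried on simulated data. The members, the 10 lists of 102 genes and the tests were chosen with earlier results of these data known. Genes named were the members, up to 4 called genes per list at 5 TPM or more, and the 5 most alike for each of 3 members; exceptions are stated, and some genes that the rule or the lists hold are not reported here. The comparisons between single tips, with their threshold, were added after the data were seen. Other tools were Python 3.11.15, pandas 2.3.3, Biopython 1.88, scipy 1.17.1 and matplotlib 3.10.9.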

Additional observations from a re-analysis of the deposited data

Results flagged for a closer look

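Across 58 sets of values, 8 held 1 library far from the others. The sets were the members and the called genes named from the lists in the tips and the organoids of the same table. Sets with the same value in every library were left out. For the organoid pieces only Alas2 was therefore checked, since every globin gene was at 0 in all of them. The cutoff marks about 1 in 20 sets of like replicates by chance. That rate is no yardstick here, since these libraries differ in stage or days. A set with all other values at 0 is also always marked. In the E13.5 tip, Hbb-bh1 was at 34.48 TPM and Slc4a1 at 2.52 TPM, both far below the other 3 tips. Tmcc2 was at 13.15 TPM in the E11.5 tip, above the others. In organoids, Hba-x was at 0.29 TPM in the library from E10.5 tips at 32 days and Hba-a2 at 0.52 TPM in that at 18 days, each with the other 9 at 0. The same 32-day library held Foxa2 at 35.81 TPM, below the rest. The organoid from E11.5 tips at 11 days held the mesenchyme gene Foxf1 at 7.66 TPM and Gypc at 4.63 TPM, both above the rest.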

How the results depend on the processing

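The call of each of the 8 genes as higher in tips held under all 12 alternatives, with a lowest difference of 2.91 for Alas2 and 4.58 for Hbb-bt. These included an exact two-sided permutation test over the 14 libraries, with p = 0.002 for each gene, the smallest it can give. That value was fixed once every tip stood above every organoid, so it adds no support. The members also passed the filter through the tips, as stated above. The count of 10392 genes called stayed within 1.5 times, from 9563 to 9793 without 1 tip. For the line on embryonic day, 0 genes were called, 0 to 5 without 1 tip and 123 with all 14 libraries in the fit. In that last fit Hbb-bh1 passed (-4.77, adjusted p = 0.048 by limma). That fit also takes its spread from the organoids, where Hbb-bh1 was at 0 in all 10. The spread is then too small for the tips, so this pass does not show a trend with stage. Leaving out 1 tip, the fitted change ranged from -1.74 to 1.39 for Hbb-y, -4.46 to 0.73 for Hba-x, -1.32 to 1.32 for Hba-a1 and -1.95 to 1.37 for Alas2, each positive only without the E13.5 tip. Taking alpha-type and beta-type genes together gave embryonic shares of 75.7, 75.3, 66.0 and 46.2% from E10.5 to E13.5. These lie below the beta-type shares because the alpha-type shares were lower in each tip. Adding 1 TPM to each gene moved no share by over 5 percentage points. Taking values under 1 TPM as 0 or counting Hbb-bh2 could not move a share. Each globin gene was at 14.7 TPM or more in the tips, and Hbb-bh2 was at 0 there. Of the other named genes, Uros lost its call under 7 alternatives. Pf4 lost its own without the E10.5, E11.5 or E13.5 tip, and Pf4, Col1a2 and Col3a1 lost theirs against organoids of 11 to 13 days alone; the cause was not tested. No paired analysis was possible because the only groups that share replicate numbers, those of the ALL table, entered no test. With 1 library per stage and unknown depth, differences between single tips have no error.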
